A study of Mus musculus with 9 samples.

Results

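The complement set followed here comprised 8 mouse genes (C1qa, C1qb, C1qc, C3, C4b, C3ar1, C5ar1 and Serping1), taken by gene symbol from 33273 symbols listed in at least 1 of the count tables. All 8 were listed for 7 samples. The tables of the normal brain and of the PDOX P8 listed 7 members and held no entry for C3, so C3 had no value in those samples and was not read as 0 there. The other 7 members belonged to the 12581 genes listed in every table.

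Complement is a cascade of plasma and tissue proteins that marks debris, microbes and synapses for removal. The C1q complex, built from the A, B and C chains, starts the classical pathway, which cleaves C4 and then C3, and the small fragments released from C3 and C5 act on the receptors C3aR1 and C5aR1. In brain, C1q is made largely by microglia, C4 and C3 can be induced in reactive astrocytes, and the C1 inhibitor encoded by Serping1 holds the first step in check.

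The study profiled mouse cells of the tumor microenvironment (TME) around human glioblastoma (GBM) with Drop-seq, a droplet method that tags the 3′ end of each RNA with a unique molecular identifier (UMI). GBM organoids from patients had been implanted into the brain of nude mice, which lack a thymus and thus mature T cells, to form patient-derived orthotopic xenografts (PDOXs). The 9 samples were 1 normal nude mouse brain without tumor (Nu-NB), 7 untreated PDOXs (P3, P8, P13, T16, T101, T192 and T233, each from a different tumor model) and 1 P3 PDOX treated with temozolomide (P3 TMZ), the alkylating drug used against GBM. All hosts were of the Nude strain, and tumor tissue and normal brain were dissociated alike. In the temozolomide experiment of the methods, control P3 mice received vehicle. Ages were not given in the labels. Nu-NB and P8 had been sorted by FACS, whereas the remaining 7 samples were separated from human tumor cells with a magnetic mouse cell depletion kit (MACS), so the sort differed between Nu-NB and all PDOXs but P8. Each PDOX was 1 library, and the labels did not say how many animals it held; p-values below measure the spread between PDOXs of different models against a single normal brain. By the methods of the study, T192 and T233 are models of 1 patient, so the 7 PDOXs stand for 6 patients while each SD and test counts them as 7. Without T192 or without T233, edgeR called 1 gene in myeloid-like and 0 in astrocyte-like cells, as with both, and 0 members.

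After filtering, 14622 cells remained, from 722 in P3 TMZ to 2770 in P13. The tables held 1294068 to 8410580 UMIs, and the median cell held 513.5 (T101) to 1272.5 (P13) UMIs. No pair of libraries shared more than 11 of 3000 barcodes. Levels are given as CPM, the usual scaling of counts to a fixed library total: the UMIs of a gene summed over the cells of a class in a sample, relative to all UMIs of the 12581 shared genes in that sum. A UMI marks 1 tagged RNA end, so CPM does not scale with transcript length. The classes were rebuilt by clustering without the members or other complement genes, and were named from marker genes. Myeloid-like cells were the largest class, with 4595 cells, of which 3571 came from untreated PDOXs (29.5% of their cells). Ctss, a lysosomal protease of myeloid cells, was found in 95.5% ± 3.62 (SD, n = 7) of myeloid-like cells of PDOXs and in 96.9% of those of Nu-NB when each cell was reduced to 500 UMIs. Clusters with markers of more than 1 class were kept apart as mixed (7.47% of PDOX cells), and these cells held 30.6% of all C1qa UMIs of PDOXs.

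The C1q genes form a cluster on mouse chromosome 4 (GRCm38, minus strand), where C1qb (chr4:136880129-136886187), C1qc (chr4:136889804-136893065) and C1qa (chr4:136895917-136898803) lie within 18675 bases. The receptors lie elsewhere, C3ar1 on chromosome 6 (chr6:122847138-122856161) and C5ar1 on chromosome 7 (chr7:16246743-16259540). C3 (chr17:57203970-57228136) and C4b (chr17:34728380-34743882) share chromosome 17, and Serping1 lies on chromosome 2 (chr2:84765387-84775444). All 8 are protein-coding genes on the minus strand.

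Promoter sequences were at hand for 5 members (RefSeq, GRCm38.p6, from 250 bases before to 50 bases after the start of transcription). They are shown for 2 of the C1q chains, which lay above Nu-NB in every PDOX, for C3ar1, the receptor with the largest difference from Nu-NB, and for C3, whose level in myeloid-like cells was highest in T101. Capitals mark GAGGAA, read on either strand, the purine-rich core bound by PU.1, a transcription factor of myeloid cells.
C1qb: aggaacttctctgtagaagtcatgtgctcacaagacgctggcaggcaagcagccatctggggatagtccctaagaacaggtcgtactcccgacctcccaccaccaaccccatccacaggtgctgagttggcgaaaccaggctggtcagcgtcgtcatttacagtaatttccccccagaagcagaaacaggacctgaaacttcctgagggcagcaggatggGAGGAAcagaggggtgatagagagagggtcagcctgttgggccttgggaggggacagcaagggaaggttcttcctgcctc
C1qc: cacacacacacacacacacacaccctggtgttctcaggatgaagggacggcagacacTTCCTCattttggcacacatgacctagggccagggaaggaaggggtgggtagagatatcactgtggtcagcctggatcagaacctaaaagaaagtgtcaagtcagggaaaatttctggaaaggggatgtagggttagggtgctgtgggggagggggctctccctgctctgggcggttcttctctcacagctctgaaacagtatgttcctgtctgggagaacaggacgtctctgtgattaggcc
C3ar1: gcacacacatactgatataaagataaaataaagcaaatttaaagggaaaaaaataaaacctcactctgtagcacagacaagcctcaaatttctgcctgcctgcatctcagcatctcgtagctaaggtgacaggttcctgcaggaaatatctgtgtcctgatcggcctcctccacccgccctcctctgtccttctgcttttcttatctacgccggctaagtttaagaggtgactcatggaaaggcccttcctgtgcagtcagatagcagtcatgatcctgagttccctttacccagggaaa
C3: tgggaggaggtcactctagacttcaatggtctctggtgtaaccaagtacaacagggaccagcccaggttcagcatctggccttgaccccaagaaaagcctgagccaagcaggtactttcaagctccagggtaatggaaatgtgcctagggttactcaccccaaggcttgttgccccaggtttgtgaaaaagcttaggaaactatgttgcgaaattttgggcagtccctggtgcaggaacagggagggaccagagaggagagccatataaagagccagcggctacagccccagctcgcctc
These windows cover chr4:136886151-136886450, chr4:136892865-136893164, chr6:122856108-122856407 and chr17:57228087-57228386, each written 5′ to 3′ along the gene. The core was present once in the C1qb window, 30 bases before the start, and once in the C1qc window, on the opposite strand and 193 bases before the start. The C3, C3ar1 and C5ar1 windows held no match. Of 32851 mouse promoters of the same length, 28.3% held the core. The STAT half-site pair TTCNNNGAA (8.30% of promoters) and the interferon response core, 2 copies of GAAA with any 2 bases between (3.44%), had no match in the 5 windows, which says only that these letters were not there.

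Among the classes, the members split into 3 patterns. The C1q chains and C3ar1 were highest in myeloid-like cells, with C5ar1 in myeloid-like and mixed cells, C4b was highest in astrocyte-like and oligodendrocyte progenitor cell (OPC)-like cells, and Serping1 in mural (pericyte)-like and fibroblast-like cells. Myeloid-like cells held 66.2% of the 29285 C1qa UMIs of PDOXs, 65.4% of the 26406 C1qb UMIs and 62.6% of the 24219 C1qc UMIs. They also held 69.4% of 3599 C3ar1 UMIs, 50.4% of 234 C5ar1 UMIs and 65.4% of 280 C3 UMIs. Most of the remainder lay in mixed clusters, which held 27.6% of C3ar1 UMIs and 44.4% of C5ar1 UMIs. The 1110 C4b UMIs were spread over mixed (29.5%), astrocyte-like (26.3%), OPC-like (19.4%) and myeloid-like cells (19.2%). Because the classes came from clustering the same cells, differences between them are described without a test.

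**Figure D1:**
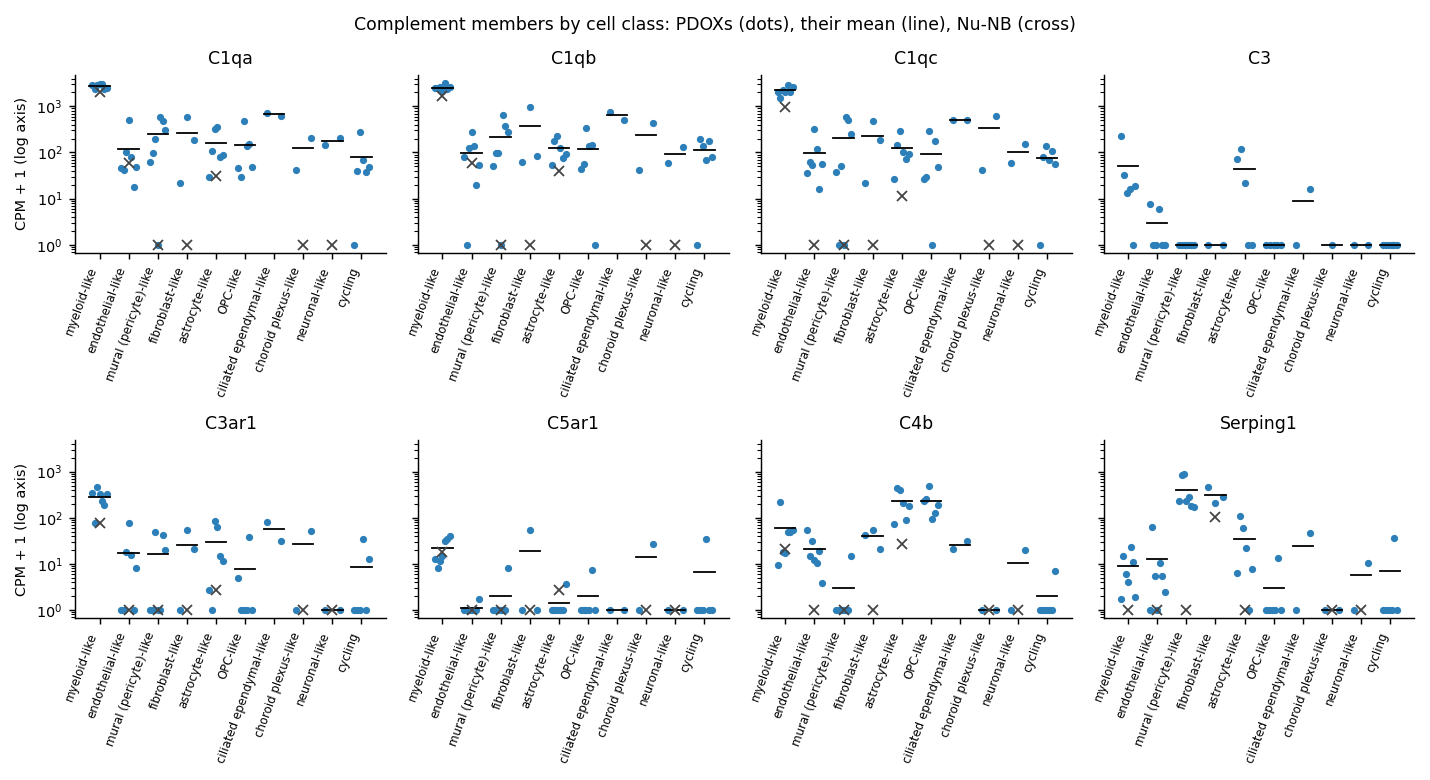
Level of each member by cell class, as CPM + 1 on a log axis. Each dot is an untreated PDOX with at least 10 cells of the class, the line is their mean and the cross is Nu-NB; values at the bottom of the axis are 0 CPM. The C1q chains were highest in myeloid-like cells (means of 2724, 2563 and 2214 CPM), C4b in astrocyte-like and OPC-like cells (229.6 and 228 CPM), and Serping1 was found mainly in mural-like cells (407 CPM, 7 PDOXs) and fibroblast-like cells (319 CPM, 3 PDOXs).

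C1qa, which encodes the A chain, had a level of 2037 CPM in myeloid-like cells of Nu-NB. In the 7 untreated PDOXs it ranged from 2334 (T16) over a median of 2925 to 3036 CPM (P3), and it reached 4977 CPM in P3 TMZ. All 7 PDOXs lay above Nu-NB and below P3 TMZ. C1qb, the B chain, had 1692 CPM in Nu-NB, 2112 (T233) to 3269 CPM (P3) in PDOXs with a median of 2545, and 4248 CPM in P3 TMZ. Here P3 stood above the other 6 PDOXs, the next of which had 2584 CPM. C1qc, the C chain, had the widest gap to normal brain. Its level was 948 CPM in Nu-NB, 1535 (T101) to 2942 CPM (P3) in PDOXs with a median of 2099, and 4032 CPM in P3 TMZ. Every PDOX thus lay above Nu-NB for all 3 chains, as for 16.4% of all genes tested, while 30.9% lay below Nu-NB in every PDOX. How many of all genes had P3 TMZ above every untreated PDOX was not counted.

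The PDOX means were 2724 ± 325 CPM for C1qa, 2563 ± 351 CPM for C1qb and 2214 ± 454 CPM for C1qc (SD, n = 7). Against Nu-NB, the fit across all genes gave log2 fold changes of 0.70 ± 0.44 for C1qa (SE; FDR = 0.404), 0.88 ± 0.44 for C1qb (FDR = 0.299) and 1.51 ± 0.50 for C1qc (FDR = 0.149), by edgeR's quasi-likelihood test with Benjamini-Hochberg adjustment. None of the chains passed the threshold of FDR ≤ 0.01 and a log2 fold change of at least 1. In that comparison edgeR called 0 of the 7 members with a value, and 1 of all 9524 genes tested (0.0105%), the hemoglobin gene Hbb-bt, which was lower in PDOXs. At an unadjusted p under 0.05 the fit held 1790 genes, 1071 of them higher in PDOXs (11.2% of those tested), and C1qc and C3ar1 were among these. DESeq2, run as an alternative, called 238 genes (2.5%) and 1 member, C1qc (log2 fold change 1.46, FDR = 0.00562). With 1 normal brain, sorted like P8 only, sort and tumor cannot be told apart in the other PDOXs.

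Within the FACS-sorted pair, the ratio of P8 to Nu-NB was 1.44 for C1qa (95% exact counting interval 1.33 to 1.55), 1.505 for C1qb (1.39 to 1.64) and 2.11 for C1qc (1.90 to 2.36). It was below 1 for C5ar1 (0.677, 0.267 to 1.93) and C4b (0.418, 0.157 to 1.18), with intervals that include 1. The intervals cover counting error only, since each side was 1 library. In P8, 198 of 591 myeloid-like cells lay in a subcluster led by ribosomal genes that held 0 Nu-NB cells. The part of this cell mix in the ratios was not tested. The fold changes over all PDOXs had the same order for the C1q chains. They share P8 and Nu-NB with these ratios, so the order is not independent. A level above Nu-NB in every PDOX was found for 4 of the 7 members with a value (the C1q chains and Serping1), against 16.4% of all genes tested, while 30.9% of genes lay below Nu-NB in every PDOX. Serping1 stood there against 0 UMIs in Nu-NB, which allows up to 7.46 CPM, and its PDOX levels began at 0.694 CPM (P8), so its place rests on that 0. Of the 6 members with at least 1 UMI in Nu-NB, 3 lay above in every PDOX, against 15.4% of such genes. Without T101, C3ar1 joined them and 5 of 7 members lay above, against 18.5% of genes.

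**Figure D2:**
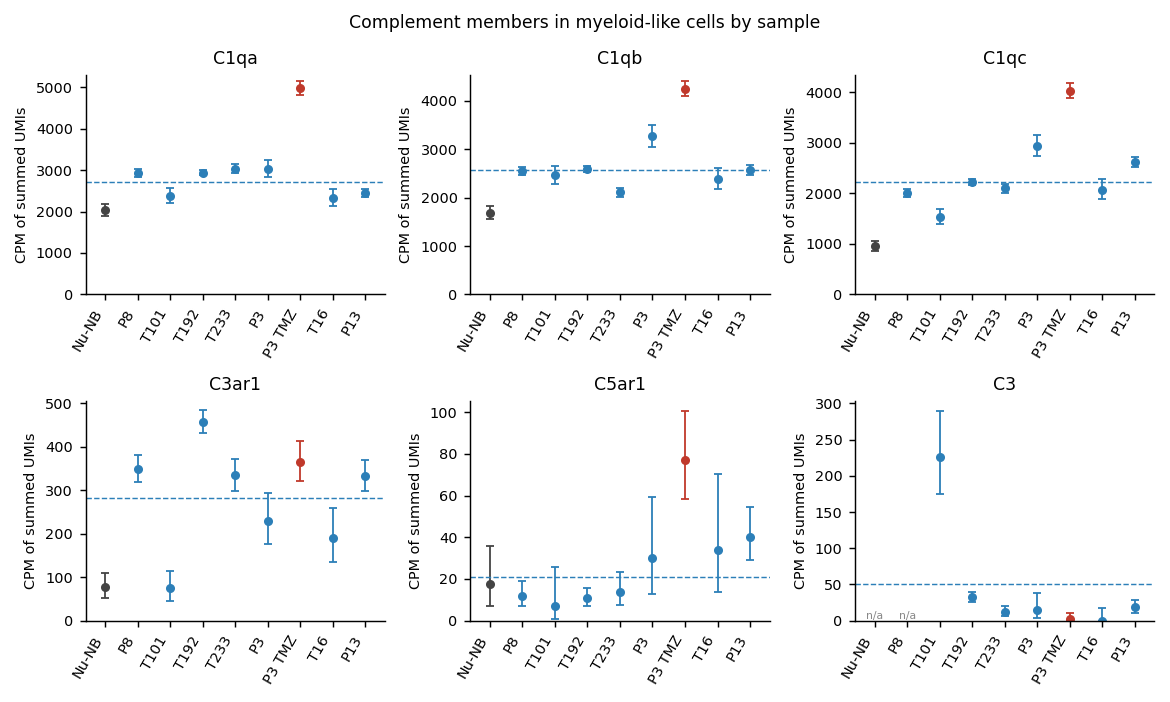
Level of 6 members in myeloid-like cells of each sample, in CPM of summed UMIs on a linear axis from 0. Grey is Nu-NB, blue the untreated PDOXs and red P3 TMZ; bars are exact 95% Poisson intervals, the dashed line is the mean of the 7 PDOXs, and n/a marks samples whose table did not list C3. The C1q chains were above Nu-NB in every PDOX and highest in P3 TMZ, and the C3 level of T101 (226 CPM) stood far above the other PDOXs.

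The proportions of the 3 chains differed between Nu-NB and PDOXs. Of the summed C1q UMIs of myeloid-like cells, C1qc made up 20.3% in Nu-NB and 29.3% ± 3.34 in PDOXs (24.1% to 34.3%, n = 7). The C1qa part was 43.6% in Nu-NB and 36.5% ± 3.57 in PDOXs (31.9% to 41.8%), and the C1qb part was close in both, 36.2% against 34.2% ± 2.86. Every PDOX thus had a larger C1qc part and a smaller C1qa part than Nu-NB. The summed C1q level was 4677 CPM in Nu-NB, 7501 ± 910 CPM in PDOXs, with T101 lowest (6372) and P3 highest (9248), and 13257 CPM in P3 TMZ.

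The C1q chains were among the steadiest abundant transcripts of myeloid-like cells across PDOXs. Their coefficients of variation over the 7 PDOXs were 11.9% for C1qa, 13.7% for C1qb and 20.5% for C1qc. Over the 96 genes with a mean of at least 1000 CPM in these cells the median was 32.3%, and 3.12% of those genes varied as little as C1qa, 5.21% as little as C1qb and 16.7% as little as C1qc. Depth and cell number per library were not taken out of these figures.

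At equal depth, each cell was reduced to 500 UMIs, shallower cells were left out, and the expected share of cells with at least 1 UMI was computed. This kept 332 of 695 myeloid-like cells of Nu-NB and 123 (P3) to 641 (T192) of those of PDOXs, and 245 of 329 of P3 TMZ. C1qa was then found in 60.2% of cells of Nu-NB and in 62.6% ± 6.58 of those of PDOXs, so the shares for this chain overlapped. C1qc was found in 35.1% of cells of Nu-NB and in 57.7% ± 9.90 in PDOXs, from 41.7% in T101 to 75.2% in P3. C1qb lay between, at 49.6% in Nu-NB and 63.2% ± 7.31 in PDOXs. Before thinning, C1qc UMIs were present in 35.7% of cells of Nu-NB and in 44.3% (T101) to 76.6% (P13) of cells of PDOXs, where the median myeloid-like cell had 490.0 UMIs in Nu-NB, 638 in T101 and 1228 in P13.

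Single cells often carried all 3 chains. At 500 UMIs, all 3 were expected in 14.1% of myeloid-like cells of Nu-NB, in 29.8% ± 6.91 of those of PDOXs and in 56.9% of those of P3 TMZ. Cells with none of the chains made up 15.9% in Nu-NB (95% interval 12.1% to 20.3%), 12.4% ± 8.40 in PDOXs and 1.21% in P3 TMZ. T101 held the largest share without C1q among the PDOXs (29.5%) and P3 the smallest (3.99%).

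The myeloid-like cells were clustered again into microglia-like (3628 cells), monocyte-like (309) and border-associated macrophage (BAM)-like cells (87), while 571 cells stayed unnamed. Microglia are the resident macrophages of the brain, monocytes enter from blood, and BAMs line the meninges and vessels. C1q was high in microglia-like and BAM-like cells and low in monocyte-like cells. In microglia-like cells the C1qa level of Nu-NB was 2039 CPM, and PDOXs had 2793 ± 401 CPM (n = 7), with T101 lowest (2122) and P3 highest (3300). In monocyte-like cells it had 493 ± 199 CPM over the 4 PDOXs with at least 10 such cells, from 242 (T101) to 688 CPM (P13), and 922 CPM in the 24 cells of Nu-NB. At clustering resolution 2 the PDOX mean of monocyte-like cells was 308 CPM. BAM-like cells had 1148 CPM in T16 and 1848 CPM in P13, below the 2827 CPM of the 27 cells of Nu-NB. The C1qc level of BAM-like cells was 2357 CPM in T16 (39 UMIs, 1676 to 3222) and 2449 CPM in P13 (57 UMIs, 1855 to 3173). In Nu-NB it was 1547 CPM (29 UMIs, 1036 to 2222), so both intervals overlapped that of Nu-NB. Microglia-like cells had a C1qc level of 2360 ± 427 CPM against 945 CPM in Nu-NB, a log2 fold change of 1.58 that did not pass edgeR's quasi-likelihood test (FDR = 0.133). The microglia-like cells of the groups fell in different subclusters. Of those of Nu-NB, 616 of 638 lay in 1 subcluster, led by Csmd3, Il7r and P2ry12, against 257 of 2708 in PDOXs. Within it the C1qc level was 960 CPM in Nu-NB and 2137 in P8, 1872 in T192 (11 cells), 2122 in T16 and 2039 in P13, the PDOXs with at least 10 such cells. T101 held 145 of the 309 monocyte-like cells.

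**Figure D3:**
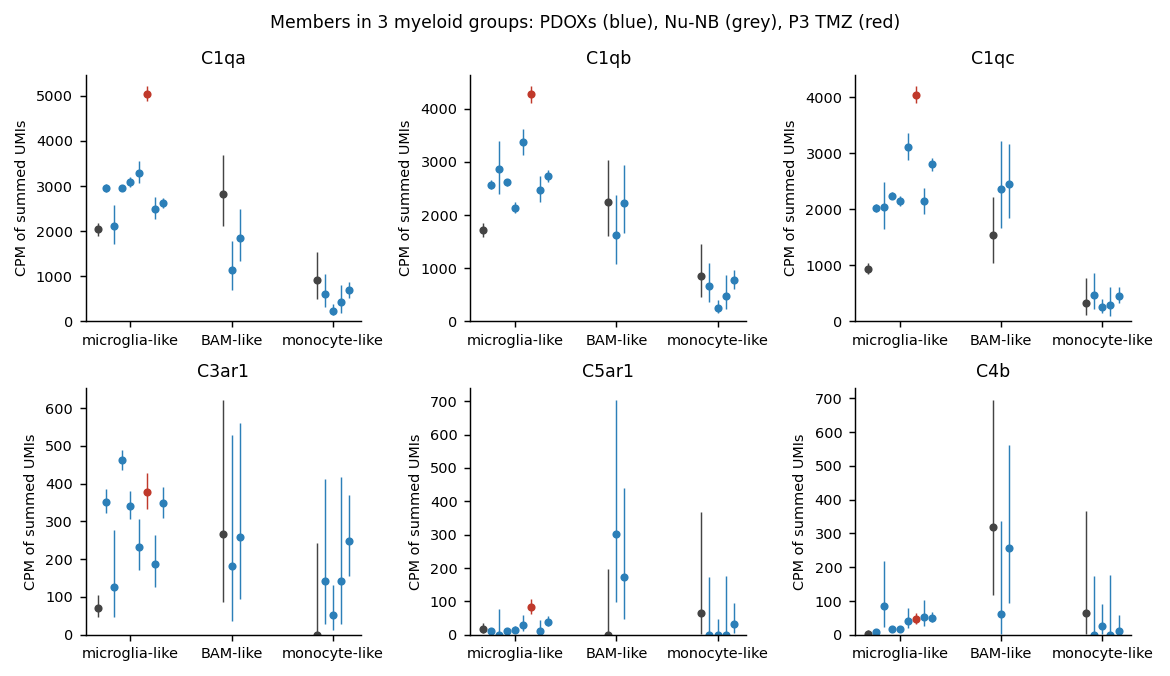
Level of 6 members in microglia-like, BAM-like and monocyte-like cells, in CPM on a linear axis from 0; each point is a sample with at least 10 cells of the group (grey Nu-NB, blue PDOXs, red P3 TMZ) and bars are exact 95% Poisson intervals. The C1q chains were lower in monocyte-like than in microglia-like cells of the samples with both, C3ar1 in microglia-like cells had 127 to 462 CPM in PDOXs and 71.5 CPM in Nu-NB, and C5ar1 was highest in BAM-like cells of T16 and P13, from 9 UMIs in all.

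UMIs of C1q were also found outside the myeloid-like cells, at lower levels. The summed C1q level as a percentage of that of myeloid-like cells of the same PDOX had a median of 2.12% in endothelial-like cells, 5.17% in astrocyte-like cells, 2.83% in OPC-like cells and 25.5% in ciliated ependymal-like cells. In droplet data, RNA released from broken cells can give such UMIs, so 2 further myeloid genes were read beside C1q: Ctss and Cx3cr1, a chemokine receptor of microglia. The ratio of C1q to the sum of both was 0.547 in myeloid-like cells (median of 7 PDOXs, 0.446 to 0.720), and its median was 0.571 in endothelial-like, 0.480 in astrocyte-like, 0.649 in OPC-like and 0.540 in ciliated ependymal-like cells. Single PDOXs went past the myeloid range in most classes, up to 2.0 in mural-like, 1.29 in neuronal-like, 1.28 in OPC-like, 0.968 in cycling, 0.845 in choroid plexus-like and 0.815 in fibroblast-like cells and down to 0 in mural-like and cycling cells. Of these, neuronal-like cells (2 PDOXs) had a median above it, 0.917. The extremes rested on few UMIs: 2 of C1q over 1 in mural-like cells of T101 and 9 over 7 in neuronal-like cells of T16. The values of 0 were 0 over 3 in mural-like cells of T233 and 0 over 1 in cycling cells of T101. At 500 UMIs, C1qa was found in 2.78% ± 2.45 of endothelial-like and 4.78% ± 2.85 of astrocyte-like cells of PDOXs, where Ctss itself was found in 12.004% and 16.8%. In myeloid-like cells the C1qa share was likewise below that of Ctss, 62.6% against 95.5%. How much of the C1q outside the myeloid-like class came from free RNA was not tested. The median endothelial-like and astrocyte-like levels of C1q were near those of the Ctss and Cx3cr1 sum, which stood at 2.03% and 5.47% of its myeloid level. The 36 endothelial-like cells of Nu-NB held 0 UMIs of C1qc and C4b, and all 7 PDOXs lay above that 0. In those cells 2 C1q UMIs already made 118 CPM. That is above every C4b level of PDOXs (2.92 to 52.9 CPM) and above their C1qc median (54.8 CPM), so a difference was not detectable for most of these values. In this class 30.4% of genes lay above and 37.5% below Nu-NB in every PDOX.

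Leaving out cells that carried at least 2 markers of another class lowered the C1qa level from 163 to 49.5 CPM in astrocyte-like cells, from 118 to 42.7 CPM in endothelial-like cells and from 245 to 67.2 CPM in mural-like cells. Other settings raised it: with no doublets left out it was 902 CPM in astrocyte-like and 202 CPM in endothelial-like cells, and in cells with at least 500 genes 283 and 280 CPM. That gene minimum also took the C1qa level of OPC-like cells from 148 to 627 CPM. It lowered that of mural-like and fibroblast-like cells to 110.5 and 51.0 CPM. The endothelial-like value came mostly from T233, with 501 CPM against 99.8 CPM or less in the other 6 PDOXs. Without T233 the mean was 54.5 CPM. T233 also had the highest relative level of Ctss and Cx3cr1 in that class, 14.6% of their level in its myeloid-like cells.

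**Figure D4:**
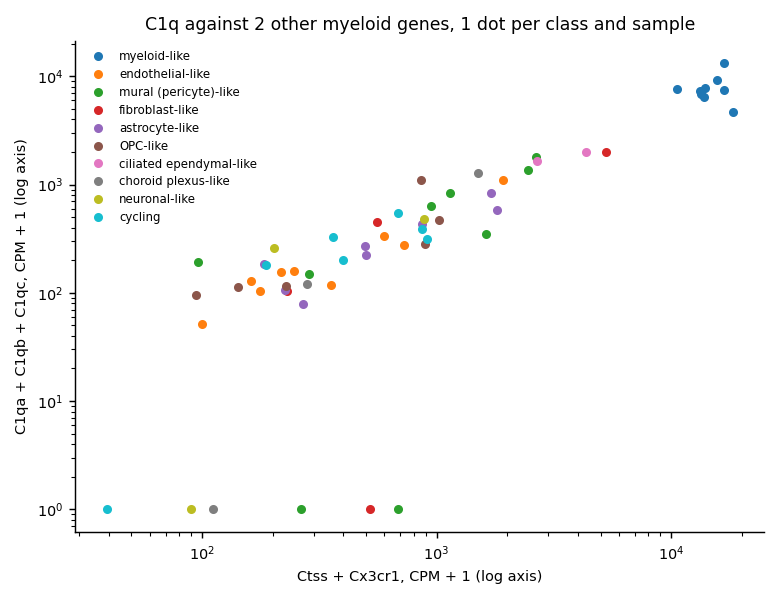
Summed C1q level (C1qa + C1qb + C1qc) against the summed level of 2 other myeloid genes (Ctss + Cx3cr1), both as CPM + 1 on log axes; each dot is 1 class in 1 of the 9 samples. Myeloid-like cells sat at the upper right, from 4677 CPM of C1q (Nu-NB) up to 13257 CPM (P3 TMZ), and most other classes lay along the same proportion at far lower levels, with a few at 0.

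C4b encodes a fourth-component chain that the classical and lectin pathways cleave. In astrocyte-like cells it had 25.8 CPM in Nu-NB (15 UMIs in 856 cells). In PDOXs it had 71.1 CPM in P8, 432 in T101, 399.6 in T192, 207 in T233, 88.3 in T16 and 179 in P13, and P3 had too few cells. All 6 PDOXs lay above Nu-NB, against 14.3% of the genes tested in this class (19.3% lay below), and the mean was 229.6 ± 154 CPM. The log2 fold change was 2.83 ± 0.83 (SE), and the edgeR quasi-likelihood test gave FDR = 0.313, so the difference did not pass the threshold. Over the alternatives tried, FDR ranged from 0.022 to 0.468 and the log2 fold change from 2.46 to 3.13.

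In astrocyte-like cells edgeR called 0 of 5727 genes (0%), and 679 had an unadjusted p under 0.05, 326 of them higher in PDOXs (5.69%); DESeq2 called 1. C4b and the 3 C1q chains were among the 326. The Ctss share of astrocyte-like cells at 500 UMIs was 6.62% in Nu-NB against 16.8% in PDOXs. In the FACS-sorted pair the C4b ratio of P8 to Nu-NB was 2.76 (1.496 to 5.37). At 500 UMIs, C4b was found in 1.14% of astrocyte-like cells of Nu-NB (95% interval 0.407% to 2.50%) and in 6.73% ± 3.39 of those of 5 PDOXs, from 3.29% in P8 to 11.7% in T192. Leaving out cells with 2 markers of another class kept the level, at 234.0 CPM, unlike that of C1qa in the same cells.

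OPC-like cells carried C4b at a like level. Their levels were 230 CPM in P8, 255 in T101, 477 in T192, 93.7 in T233, 124 in T16 and 187 in P13, with a mean of 228 ± 136 CPM (n = 6). Nu-NB had 5 such cells and gives no comparison. The highest value rested on 10 UMIs (T192, 95% interval 229 to 877 CPM) and the lowest on 2 UMIs (T233, 11.3 to 338 CPM), and these intervals overlap. In endothelial-like cells C4b stood at 19.8 ± 16.9 CPM and in mural-like cells at 1.99 ± 5.26 CPM.

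C4b has a close copy, C4a, 65210 bases away. The last 300 bases of their longest transcripts were 98.0% identical, so reads could be split between them or set aside. Over 7 tables, astrocyte-like cells had 7 UMIs of C4a and 295 of C4b, and OPC-like cells 3 and 213.

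C3, on which all pathways converge, was sparse. In myeloid-like cells it had 226 CPM in T101 (64 UMIs), 32.3 in T192, 11.9 in T233, 15.03 in P3, 18.2 in P13, 0 in T16 (0 of 205231 UMIs, which allows up to 14.6 CPM) and 2.81 in P3 TMZ. T101 thus stood apart, and the mean of 50.6 ± 86.7 CPM (n = 6) fell to 15.5 CPM without it. Astrocyte-like cells had a C3 level of 42.6 ± 52.5 CPM (n = 5), with 72.1 CPM in T101 (2 UMIs), 120 in T192, 20.7 in T233 (1 UMI) and 0 in T16 and P13. They stood above the myeloid-like cells in T192 and T233 and below them in T101 and P13, so the order of these classes differed between PDOXs. C4b in myeloid-like cells was likewise highest in that PDOX, 223 CPM in T101 (63 UMIs) against 8.33 CPM (P8) to 52.7 CPM (P13) in the other PDOXs and 19.9 CPM in Nu-NB. Its mean of 59.2 ± 74.5 CPM fell to 31.9 CPM without T101, and its log2 fold change against Nu-NB from 1.64 to 0.77 (edgeR quasi-likelihood, FDR = 0.595 and 0.709). Of the 8 C4b UMIs of Nu-NB, 6 lay in its 27 BAM-like cells (320 CPM) and 1 in its 638 microglia-like cells (2.75 CPM). Microglia-like cells of PDOXs had 38.9 ± 27.2 CPM of C4b, from 8.49 in P8 to 84.9 in T101, and all 7 lay above that 1 UMI, against 13.5% of genes. The log2 fold change in microglia-like cells was 3.57 (edgeR quasi-likelihood, FDR = 0.196). At clustering resolution 2 their mean C4b level was 69.5 CPM.

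In T101 most C4b UMIs sat in 1 group of cells, where C3 stood near its level in monocyte-like cells. A subcluster of 161 T101 cells, led by Hbb-bs, Hba-a1, Iigp1, Gbp2 and Ifit2 and left unnamed, held 41 of the 64 C3 UMIs (64.1%) and 56 of the 63 C4b UMIs (88.9%) of the myeloid-like cells of that PDOX. There the level was 271 CPM for C3 and 371 CPM for C4b, against 226 and 223 CPM in all myeloid-like cells of T101. The 173 unnamed cells of T101, which include this group, held 157267 of the 282789 UMIs of its myeloid-like cells. Monocyte-like cells of T101 held a further 19 C3 UMIs (29.7%; 242 CPM). A list of 12 interferon-induced genes, chosen after these values were seen, summed to 6256 CPM in myeloid-like cells of T101 and to 250.3 (T233) to 1274 CPM (P13) in the other PDOXs, with 599 CPM in Nu-NB. It was high in T101 astrocyte-like cells as well, 5729 CPM against 205 to 859 CPM, and its part in the C3 and C4b levels was not tested.

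In astrocyte-like cells C3 rested on 25 UMIs. T192 had 120 CPM (22 UMIs), T101 72.1 CPM (2 UMIs), T233 20.7 CPM (1 UMI), and T16 and P13 had 0. The mean of 5 PDOXs, 42.6 ± 52.5 CPM, fell to 23.2 CPM without T192. C3 was at 0 UMIs in mural-like, OPC-like and fibroblast-like cells of all PDOXs with a value.

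The receptor genes were highest in myeloid-like or mixed cells. C3ar1, the receptor of the C3a fragment, had 77.1 CPM in myeloid-like cells of Nu-NB, 74.3 (T101) to 457 CPM (T192) in PDOXs with a median of 333, and 365 CPM in P3 TMZ. It was above Nu-NB in 6 of 7 PDOXs, and T101 lay at the level of Nu-NB. The log2 fold change was 2.16 ± 0.79 (SE) with FDR = 0.177 by edgeR's quasi-likelihood test, and DESeq2 gave FDR = 0.0244, also short of the threshold. In the FACS-sorted pair the ratio of P8 to Nu-NB was 4.53 (3.15 to 6.73), larger than that of any C1q chain. Of the 503 C3ar1 UMIs of P8, 404 (80.3%) lay in its subcluster led by ribosomal genes, which held 0 Nu-NB cells. The level there was 356 CPM, against 349 CPM in all myeloid-like cells of P8. At 500 UMIs, C3ar1 was found in 3.44% of myeloid-like cells of Nu-NB and in 10.7% ± 4.40 of those of PDOXs, from 3.499% in T101 to 16.1% in T192.

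Among microglia-like cells alone, C3ar1 lay above the 71.5 CPM of Nu-NB in 7 of 7 PDOXs, with 293 ± 116 CPM (127 in T101 to 462 in T192). In these cells 5 of the 7 members with a value lay above Nu-NB in every PDOX (the C1q chains, C3ar1 and C4b), against 13.5% of 9419 genes. The log2 fold change was 2.35 and edgeR's quasi-likelihood test gave FDR = 0.0865. Within the subcluster that held most Nu-NB cells the levels were closer, 69.2 CPM in Nu-NB (24 UMIs) against 136 in P8, 156 in T192 (1 UMI), 75.8 in T16 and 121 in P13. Their mean was 122 CPM, and the Poisson intervals of all 4 PDOXs overlapped that of Nu-NB. T101, whose whole class lay at the level of Nu-NB, had 75 microglia-like cells out of 393 myeloid-like cells. Monocyte-like cells had 146 ± 80.2 CPM (n = 4; 78.1 at clustering resolution 2) and BAM-like cells 220 ± 54.1 CPM (n = 2).

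C5ar1, the receptor of the C5a fragment, was rare, with 118 UMIs in all myeloid-like cells of PDOXs. Its level was 17.4 CPM in Nu-NB (7 UMIs) and 7.07 (T101) to 40.2 CPM (P13) in PDOXs, so the groups overlapped. The log2 fold change was 0.45 ± 0.89 (edgeR quasi-likelihood, FDR = 0.819). P3 TMZ had 77.2 CPM, above every other sample, and how many of all genes were likewise highest in P3 TMZ was not counted. The few BAM-like cells had the highest values, 302 CPM in T16 and 172 CPM in P13, while those of Nu-NB held 0 UMIs.

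Serping1, which encodes the C1 inhibitor, had its highest levels in mural-like cells, which wrap small vessels, and in fibroblast-like cells, and which of these was higher depended on the PDOXs counted. Of its 405 UMIs in PDOXs, 40.2% were in mural-like cells, 28.1% in mixed cells, 9.88% in fibroblast-like cells and 7.41% in myeloid-like cells. Its level in mural-like cells was 235 CPM in P8, 860 in T101, 887 in T192, 227 in T233 (1 UMI), 288 in P3, 178 in T16 and 172 in P13, and 419.9 CPM in P3 TMZ. T101 and T192 stood above the other 5 PDOXs, which spanned 172 to 288 CPM, and the mean was 407 ± 321 CPM. The interferon-induced list summed to 5163 CPM in mural-like cells of T101 and 3106 CPM in T192, against 0 (T233) to 1484 CPM (P8) in the other PDOXs, and its part in the Serping1 level was not tested. The 15 mural-like cells of Nu-NB held 0 UMIs of Serping1, which allows up to 393 CPM. T101 and T192 lay above that limit, and a difference from the other 5 PDOXs was not detectable at this depth; all 7 PDOXs lay above that 0, as did 24.8% of genes tested (22.2% lay below). When only cells with at least 500 genes were kept, the mean was 203 CPM.

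Fibroblast-like cells had Serping1 at 457 CPM in P8, 287 in P13 and 212 in T16, which averaged 319 ± 126 CPM (n = 3), against 103 CPM from 1 UMI in Nu-NB. In each of these 3, the PDOXs with both classes, the fibroblast-like level was above the mural-like one, while T101 and T192 had too few fibroblast-like cells for a value. Myeloid-like cells had 0.694 (P8) to 22.5 CPM (P3), from 30 UMIs in all, and 0 UMIs in Nu-NB, which allows up to 7.46 CPM. In mural-like and fibroblast-like cells edgeR called 0 of 609 and 0 of 1041 genes (0% and 0%), and DESeq2 also called 0. At an unadjusted p under 0.05 there were 86 genes in mural-like cells, 46 of them higher in PDOXs (7.55%), and 77 in fibroblast-like cells, 69 of them higher (6.63%), and no member was among these. In endothelial-like cells edgeR and DESeq2 called 0 of 6296 genes (0%), 749 genes were higher at an unadjusted p under 0.05 (11.9%), and no member was among them. At 500 UMIs, Serping1 was found in 14.6% ± 3.30 of fibroblast-like cells of 2 PDOXs, 8.11% ± 1.20 of mural-like cells of 3 PDOXs, 7.83% of those of P3 TMZ and 0.248% of myeloid-like cells of PDOXs.

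**Figure D5:**
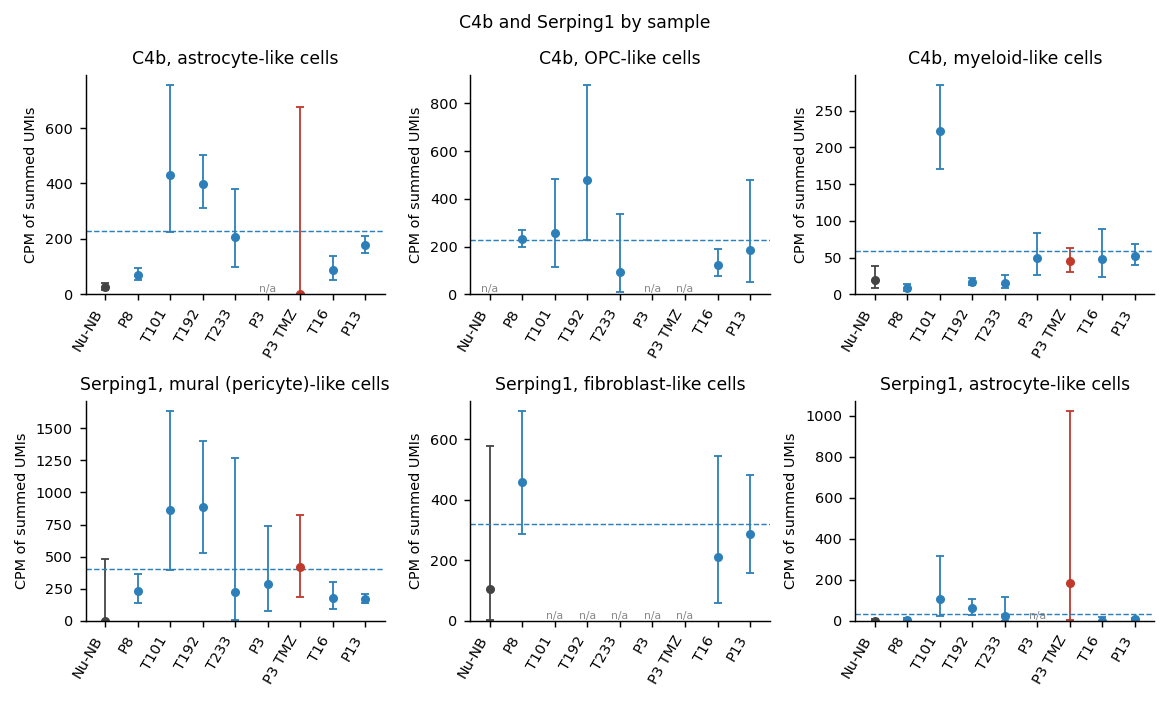
Level of C4b (top row: astrocyte-like, OPC-like and myeloid-like cells) and Serping1 (bottom row: mural-like, fibroblast-like and astrocyte-like cells) by sample, in CPM on linear axes from 0 that differ between panels. Grey is Nu-NB, blue the untreated PDOXs and red P3 TMZ; bars are exact 95% Poisson intervals, the dashed line is the PDOX mean, and n/a marks samples with under 10 cells. C4b in astrocyte-like cells lay above Nu-NB in all 6 PDOXs, and the C4b level of T101 stood apart in myeloid-like cells.

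After temozolomide, the members of myeloid-like cells were compared between P3 TMZ and P3, 1 library each, so no test was possible. The ratio of P3 TMZ to P3 was 1.64 for C1qa (exact counting interval 1.52 to 1.77), 1.30 for C1qb (1.20 to 1.40) and 1.37 for C1qc (1.27 to 1.49). It was 1.59 for C3ar1 (1.20 to 2.14) and 2.57 for C5ar1 (1.22 to 6.24). The ratio was 0.919 for C4b (0.469 to 1.91). C3 had 4 UMIs in P3 and 2 in P3 TMZ, and Serping1 6 and 2. Of the 6 members with at least 20 UMIs, 3 (C1qa, C3ar1 and C5ar1) were past 1.5-fold higher, against 12.7% of 5625 genes, and 0 were past 1.5-fold lower, against 11.3%. The median myeloid-like cell held 547 UMIs in P3 and 911 in P3 TMZ, and the part of depth was not tested.

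In microglia-like cells alone the ratios stayed close, 1.53 for C1qa (1.41 to 1.66), 1.63 for C3ar1 (1.20 to 2.26) and 2.96 for C5ar1 (1.27 to 8.40). At 500 UMIs, C1qa was found in 82.2% and C1qc in 80.4% of myeloid-like cells of P3 TMZ, above every untreated PDOX. How many of all genes had such a place was not counted. The C3ar1 share was 10.8%, inside the range of the untreated PDOXs. Without cells carrying 2 markers of another class, the C3ar1 ratio was 0.876.

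The wider pathway list held 43 further complement genes, of which 24 were listed in every table and Mbl2, Cfd, Vsig4 and C4bp were not analysed here. In myeloid-like cells 16 were tested against Nu-NB, 0 passed, 12 had a positive and 4 a negative log2 fold change, and their median was 0.94 against 0.13 over all genes. Itgax and Itgb2, which together form complement receptor 4, were among the 4 of 16 at an unadjusted p under 0.05, against 18.8% of all genes tested, with log2 fold changes of 3.91 (FDR = 0.168) and 1.91 (FDR = 0.219; edgeR quasi-likelihood). Their levels were 333 ± 218 CPM against 27.4 CPM in Nu-NB for Itgax, and 333 ± 162 against 109 CPM for Itgb2. Itgam, the partner of Itgb2 in complement receptor 3, had 1063 ± 238 CPM against 1694 CPM. C1qbp and Cd59a were the other two at an unadjusted p under 0.05.

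In astrocyte-like cells 10 genes of the list were tested and 0 passed, with 9 positive and a median of 1.14 against -0.04 over all genes. In endothelial-like cells 11 were tested and 0 passed, with 9 positive and a median of 0.97 against 0.65. Fibroblast-like cells had 5 tested, 0 passed, all 5 positive, and mural-like cells 3 tested, 0 passed, with 1 positive.

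Of the list, 18 genes reached a mean of 50 CPM in at least 1 class of PDOXs, and these included regulators and receptors of most classes. Clu, a fluid-phase inhibitor of the terminal complex, was highest in astrocyte-like cells (6184 ± 1401 CPM; 4559 in Nu-NB), and Vtn, which acts at the same step, in mural-like cells (4565 ± 2622; 5245). The collectin Colec12 was highest in fibroblast-like cells (1072 ± 650; 931), as was the C3b-cleaving protease Cfi (73.6 ± 74.6). Cd59a, which blocks the membrane attack complex, peaked in choroid plexus-like cells (522 ± 336; 444), and Cd55, which destabilises convertases, in ciliated ependymal-like cells (128 ± 13.8). C1ra, a protease that acts with C1q, was highest in mural-like cells (98.2 ± 118 CPM; 0 in Nu-NB).

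Hc, which encodes C5, was highest in ciliated ependymal-like cells (97.1 ± 25.5 CPM). Endothelial-like cells were highest for Cd93 (470 ± 216; 411 in Nu-NB) and for Cr1l, a convertase regulator (195 ± 25.8; 176). OPC-like cells were highest for Csmd2 (68.2 ± 22.9) and the inhibitor Susd4 (89.5 ± 23.8), and cycling cells for C1qbp (267 ± 136) and Ptx3 (87.0 ± 125).

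The genes whose levels ran most alike with each member were named by Pearson's r of log2(CPM + 10) over 69 sums of a class in a sample, among 8300 genes. The sums come from 9 samples and 12 classes, so they share libraries and depth, and r is a description. For C1qa these were Ctss (0.949), Trem2 (0.919) and Ctsd (0.911). For C3ar1 they were Lat2 (0.872), Gpr65 (0.868) and Pilra (0.867), and for C5ar1 Fcrls (0.789), Ncf1 (0.783) and Cd300lf (0.776). C4b ran with Serpina3n (0.740), Gfra1 (0.709) and AW047730 (0.698), and Serping1 with Npy1r (0.838), Pdgfrb (0.835) and Il34 (0.827). C3 had the weakest likeness, over 54 sums of 7 samples, with Tnfaip2 (0.701), S100a4 (0.674) and H2-DMb1 (0.659).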

How the data were processed

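Drop-seq libraries of 9 samples were read from the deposited tables of raw UMI counts per gene and cell. Per the labels and methods, the authors processed reads with bcl2fastq 2.0 and STAR on GRCm38/mm10, and separated mouse from human cells by mapping. Whether strand was used in counting is not given in the sources used here.

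A cell needed 200 or more genes and no more than 30% of its UMIs from mitochondrial genes, and the top 5% of Scrublet scores per sample were left out as doublets. Clustering (scanpy 1.11.5, leidenalg 0.10.2, Python 3.11.15) used genes in at least 5 cells, 2000 variable genes, 30 components, 20 neighbours, resolution 1 and seed 1, without members or pathway genes. A cluster was named "X-like" if it detected 3 or more markers of a class, making up 50% or more of the list, with 2 of these present together in 30% or more of the cells. Clusters that met this for a further class were mixed, and mixed or unnamed ones with 60 or more cells were split by another round of clustering. Among myeloid-like subclusters, BAM-like and monocyte-like ones needed such markers at 50 CPM or more and at 4 times the median subcluster. Of the rest, microglia-like ones needed 50% of their markers at 50 CPM or more and at 10% or more of the highest subcluster. Joint presence in cells was not asked for there. These naming rules were chosen after clusters had been seen, and the members and gene lists were chosen with earlier results of these data known. Named genes are the 8 members, the pathway genes at 50 CPM or more in at least 1 class, and the 3 most alike genes of 6 members. Some genes of these lists are not reported here.

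UMIs were summed per sample and class (at least 10 cells) and tested with edgeR 4.0.16 (TMM, filterByExpr, quasi-likelihood, two-sided, R 4.3.3), 7 untreated PDOXs against Nu-NB, at FDR ≤ 0.01 and an absolute log2 fold change of at least 1. DESeq2 1.42.0 was an alternative. Scripts were tested on simulated data. Shares are expected values over all draws of 500 UMIs per cell in samples with at least 20 such cells, intervals are exact at 95%, and a count of 0 allows up to 3 counts. These limits cover counting error only.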

Additional observations from a re-analysis of the deposited data

Results flagged for a closer look

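In 29 combinations of a member and a class with 5 to 7 PDOXs and at least 20 UMIs, 7 had a sample that stood apart from the others by Dixon's test (gap over range), where chance gives about 1 in 20 (1.45 of 29). In myeloid-like cells these were the C3 level of T101 (226 CPM, next 32.3), the C4b level of T101 (223 CPM, next 52.7) and the C1qb level of P3 (3269 CPM, next 2584). In endothelial-like cells T233 stood apart for C1qa (501 CPM, next 99.8), C1qc (327 CPM, next 121) and C3ar1 (76.2 CPM from 7 UMIs, next 17.4). In OPC-like cells T192 stood apart for C1qa (477 CPM from 10 UMIs, next 149).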

How the results depend on the processing

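Of 1458 values under alternatives, 1318 stayed on their side of the threshold, within 1.5 times for counts of genes or, for levels and shares, within 1 SD of the PDOXs; 137 moved, 2 reversed and 1 became stronger. Low levels could change much within that SD: without cells holding 2 markers of another class, C1qc in mural-like cells went from 202 to 7.08 CPM and C1qa in fibroblast-like cells from 263 CPM (3 PDOXs) to 0 (1 PDOX). The genes called in myeloid-like cells, 1 of 9524, became 238 with DESeq2, 2 without TMM, 2 without a filter on low counts, 0 at resolution 2, 0 without cells holding 2 markers of another class and 2 in microglia-like cells only. Leaving out 1 PDOX at a time gave 1 to 59 genes, with 59 without P8, 4 without T16 and 2 without T101. The members called became 1 with DESeq2 (C1qc). In astrocyte-like cells the count of 0 became 1 with DESeq2, 37 without a filter, 9 without cells holding 2 markers of another class and 0 to 13 when 1 PDOX was left out, the highest without P8. Direction reversed for C1qb in endothelial-like cells (log2 fold change -0.36 without cells holding 2 markers of another class) and for C1qa in fibroblast-like cells (-0.43 with no doublets left out); the cause was not tested. Depth set the shares of cells: at 300 and 1000 UMIs they were 45.1% and 82.9% for C1qa, 44.8% and 85.0% for C1qb, 39.9% and 80.7% for C1qc, and 6.14% and 20.8% for C3ar1 in myeloid-like cells. At 1000 UMIs they were 1.68% for C5ar1 in myeloid-like cells, 15.9% for C4b in astrocyte-like and 12.01% for C4b in OPC-like cells. For Serping1 in mural-like cells they were 10.3% and 10.7%, and 10.1% in cells with at least 500 genes and 10.2% without cells holding 2 markers of another class, and in fibroblast-like cells 11.1% at 300 UMIs and 8.27% in cells with at least 500 genes. With that gene minimum, the mean over PDOXs of the share of Serping1 UMIs held by mural-like cells went from 31.3% to 16.1%; the share of the pooled UMIs in the report is another measure. The P3 TMZ to P3 ratio became 1.18 for C1qb with that minimum, and 0 for C3 and 0.876 for C3ar1 without cells holding 2 markers of another class. With no TMM the median log2 fold change of all genes in myeloid-like cells shifted from 0.13 to -0.15. At resolution 2, C1qb in monocyte-like cells went from 541 to 338 CPM and, in microglia-like cells, C3 from 23.4 to 48.4 CPM and C4b from 38.9 to 69.5 CPM. In the subcluster with most Nu-NB cells, C3ar1 in microglia-like cells went from 293 to 122 CPM. The FACS-sorted pair and the counts of members above Nu-NB without T101 and in microglia-like cells, and the values within that subcluster, were chosen after the data had been seen. No paired analysis was possible because there was 1 normal brain, and replicate numbers were given in accession order and pair no samples.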

Other observations

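Barcodes with fewer than 100 detected genes, which were not used as cells, also carried C1q. In these barcodes C1qa had 378 CPM of all genes in T101 (720 barcodes), 479 in Nu-NB (312 barcodes), 774 in P8 (6674 barcodes), 819 in P3 (935 barcodes), 869 in T233 (791 barcodes), 977 in P3 TMZ (1778 barcodes) and 981 in T192 (143 barcodes). The 77 such barcodes of T16 and the 3 of P13 held 0 C1qa UMIs. Serping1 had 0 UMIs in those of Nu-NB and 13.2 CPM in those of P8.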
